A study of Mus musculus with 6 samples.

Results

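The metalloproteases of the MMP, ADAM and ADAMTS families and the Timp inhibitors were followed in malignant epithelial cells of a mouse pancreatic carcinoma after decitabine. The members were all probes of the array whose gene name is MMP, TIMP, ADAM or ADAMTS followed by a digit. This gave 140 of 45281 probes, for 74 of 28902 gene names. The cells were a short-term explant from a tumour of a KPC-Brca1 mouse. KPC is the usual name for a family of genetically engineered mice that develop pancreatic carcinoma, and the labels describe the alleles no further than by the name KPC-Brca1. Of this culture, 3 plates were left untreated and 3 were exposed to decitabine (5-aza-2′-deoxycytidine, DAC) at 0.5 µM over 48 h. Decitabine is a cytidine analog that is built into DNA and traps the DNA methyltransferases there, so that methylation is lost as cells divide. Replicates are plates, and p-values therefore measure the spread between plates and not between animals.

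Matrix metalloproteinases (MMPs) are zinc enzymes that are made as inactive proenzymes and cut collagens, proteoglycans and other matrix proteins once the propeptide is removed. The Timp proteins bind and block their active sites. ADAMs are membrane proteins with a related protease domain, and the somatic ones are known for shedding growth factors and receptors from the cell surface, while many other mouse ADAMs are made mainly in testis or epididymis and serve sperm. ADAMTS enzymes are secreted and carry thrombospondin repeats, and several of them cut proteoglycans.

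RNA was measured on Illumina bead arrays. Between 19890 and 21462 probes were detected per array, where detected means a detection p under 0.05 in the deposited table, and the number of arrays limits the precision. Untreated replicates 2 and 3 lay close together (r = 0.997 over log2 values), at 1.71 times the squared difference that the spread between beads alone would give, and were kept as separate samples, as labelled. Untreated replicate 1 stood apart from both (r = 0.976 and 0.977, at 21.8 and 19 times), against 3.53 to 7.45 times among the DAC arrays. Counts without that array, and with the other 2 untreated arrays averaged, are given with the results. Of 10 epithelial markers 8 had a tested probe, among them Krt8, Krt18, Krt19 and Cdh1 on all 6 arrays, and no probe of Epcam or Ehf was detected on any array. In a bulk sample, fewer cells of a type and less RNA per cell cannot be told apart.

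Signals are given as log2 normalised intensity, and changes as the log2 fold change of DAC over untreated plates ± its standard error, with n = 3 per group. Every fold change and adjusted p of a gene comes from one limma fit over 21415 probes detected on at least 3 of 6 arrays, with Benjamini-Hochberg adjustment, and genes past an adjusted p of 0.05 are said to have risen or fallen. A gene is represented by its tested probe with the highest mean. Probe brightness depends on the probe, so signals are not compared between genes.

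The 2 stromelysin genes Mmp3 and Mmp10 had the largest rises among the 33 tested genes, and the testis-type ADAMs stayed undetected for the most part. Of those 33 genes, 4 rose (Mmp10, Mmp3, Mmp15 and Adamts4) and 2 fell (Adamts1 and Adamts10), or 18.2%, against 15.5% of all 14154 genes tested the same way, 9.38% upward and 6.15% downward. The members as a whole were thus called about as often as other genes. Their median log2 fold change was -0.09, and that of all genes tested was -0.02. Of the other 41 genes, 30 were undetected by all their probes and 11 were detected on too few arrays to be tested. The 2 groups did not overlap in 12 of the 33 genes, against 36.2% of all genes. By probe, 53 were tested, of which 8 rose and 2 fell, against 15% of all probes tested, 8.34% upward and 6.62% downward. The 27 tested genes not past the threshold had log2 fold changes between -0.64 and 0.45.

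**Figure D1:**
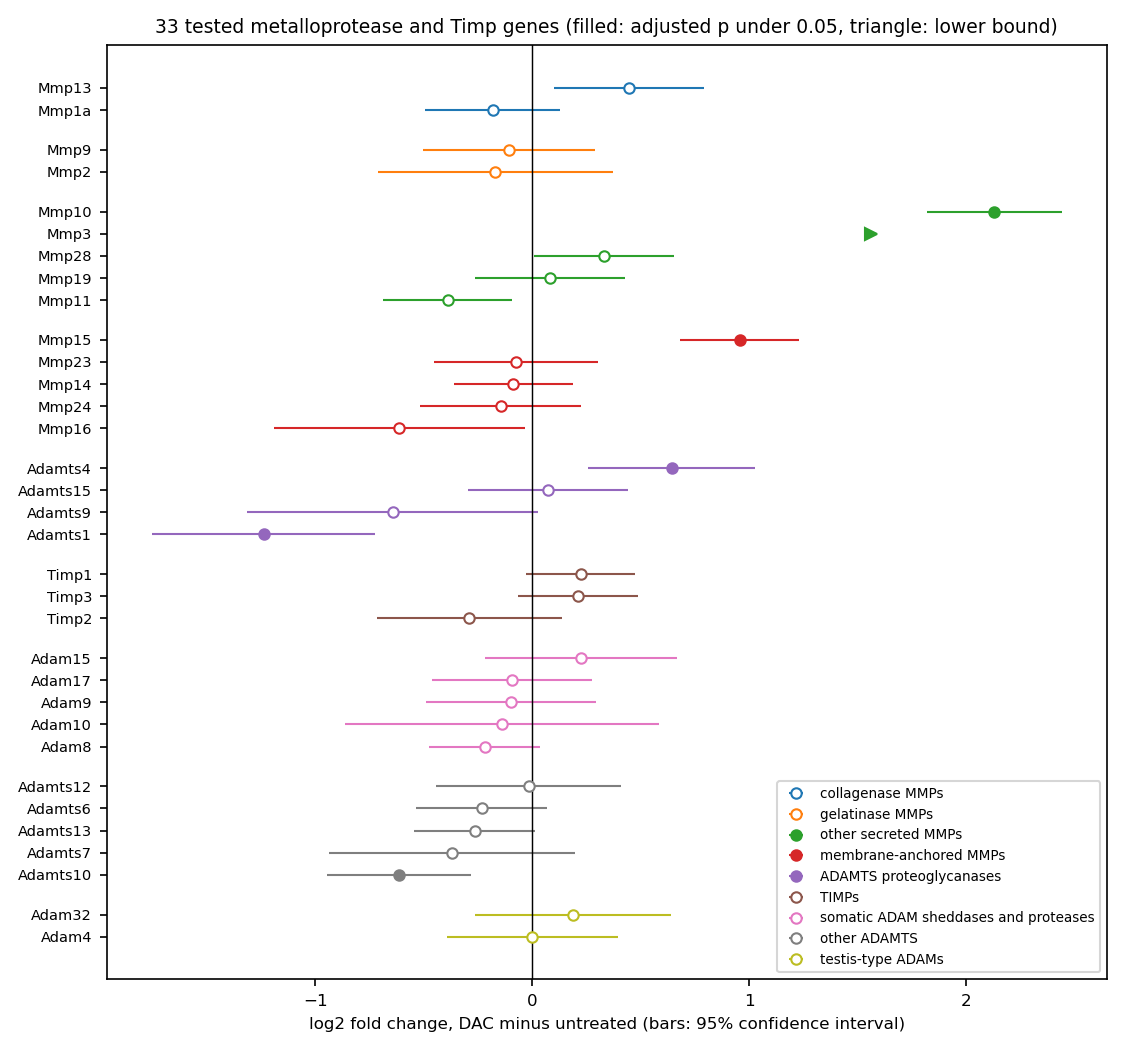
Log2 fold change, DAC minus untreated, on the horizontal axis for the 33 tested metalloprotease and Timp genes, grouped by role, with 95% confidence intervals from the limma fit. Filled symbols are the 6 genes past an adjusted p of 0.05. Mmp10 (2.13) lies farthest to the right and Adamts1 (-1.24) farthest to the left, and the triangle of Mmp3 marks a lower bound (1.57), since it was not detected untreated.

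The sequences just upstream of the stromelysin genes are shown first, since both genes rose and lie in 1 row of Mmp genes. In RefSeq gene order (GRCm38.p6), 10 Mmp genes stand near each other on chromosome 9 as Mmp13, Mmp12, Mmp1b, Mmp3, Mmp1a, Mmp10, Mmp8, Mmp27, Mmp20 and Mmp7. Between Mmp10 and Mmp8 lies 1 other gene, and between Mmp20 and Mmp7 lie 2. The windows below are RefSeq promoters that run from 250 bases before to 50 bases after a gene's start, 5′ to 3′ on the gene's strand, which is the plus strand for all 4. Capitals mark the AP-1 motif TGAGTCA or its reverse complement TGACTCA, the binding motif of Fos and Jun proteins. They also mark the letters TATAAA, the motif of a TATA box, on the gene's strand, wherever they stand in the window. These motifs do not overlap in the windows shown. Mmp1a lies between the 2 stromelysin genes, and Mmp13 stands at the end of the row.
Mmp3, chr9:7445572-7445871: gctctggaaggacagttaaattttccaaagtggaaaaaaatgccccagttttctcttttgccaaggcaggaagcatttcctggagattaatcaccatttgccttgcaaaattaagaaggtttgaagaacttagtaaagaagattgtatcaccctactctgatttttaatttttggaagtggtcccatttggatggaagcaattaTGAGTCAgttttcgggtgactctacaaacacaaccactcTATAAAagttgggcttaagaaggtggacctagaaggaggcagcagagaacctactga
Mmp10, chr9:7502092-7502391: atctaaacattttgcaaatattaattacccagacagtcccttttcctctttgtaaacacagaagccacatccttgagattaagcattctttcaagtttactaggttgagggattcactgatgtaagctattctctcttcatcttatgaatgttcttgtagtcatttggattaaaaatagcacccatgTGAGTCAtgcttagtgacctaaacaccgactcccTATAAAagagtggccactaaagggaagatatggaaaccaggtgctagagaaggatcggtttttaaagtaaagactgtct
Mmp1a, chr9:7463891-7464190: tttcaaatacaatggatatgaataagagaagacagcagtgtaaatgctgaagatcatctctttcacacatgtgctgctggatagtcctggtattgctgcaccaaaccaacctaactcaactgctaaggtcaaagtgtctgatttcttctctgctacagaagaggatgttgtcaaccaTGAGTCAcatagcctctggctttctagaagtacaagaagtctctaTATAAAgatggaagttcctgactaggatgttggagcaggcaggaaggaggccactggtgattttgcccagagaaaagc
Mmp13, chr9:7272264-7272563: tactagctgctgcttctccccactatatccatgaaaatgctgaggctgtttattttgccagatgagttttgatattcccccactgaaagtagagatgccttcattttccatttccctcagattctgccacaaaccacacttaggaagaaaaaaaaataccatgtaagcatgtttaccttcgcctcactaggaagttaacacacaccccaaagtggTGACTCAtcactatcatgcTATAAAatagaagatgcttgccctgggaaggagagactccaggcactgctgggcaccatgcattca

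Each of these 4 windows held 1 AP-1 motif and 1 TATAAA. Relative to the gene's start, TATAAA began at -7 in Mmp3, -29 in Mmp10, -28 in Mmp1a and -16 in Mmp13. Promoter windows were found for 45 of the 74 genes, 48 windows in all. AP-1 and TATAAA occurred together in 8 of them, 16.7%, against 0.624% of all 32851 windows in the table. Those 8 belong to Mmp1a, Mmp1b, Mmp3, Mmp7, Mmp10, Mmp12, Mmp13 and Adam29, all but the last in the row of related genes on chromosome 9. The share therefore describes these neighbours and not the members at large. Of the 8 genes, Mmp3 and Mmp10 rose, Mmp13 and Mmp1a were tested and did not pass, and Mmp1b, Mmp7, Mmp12 and Adam29 were undetected throughout. A motif match describes the letters of the window and is not evidence of a bound site.

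Mmp10, the gene of stromelysin 2, an enzyme that cuts proteoglycans, fibronectin and other matrix proteins and can activate other MMPs, had the largest rise. Its single probe (3890600) read 7.79, 7.49 and 7.39 in untreated replicates 1 to 3 and 9.67, 9.68 and 9.72 in DAC replicates 1 to 3. The deposited intensities were 305.4, 202.2 and 199.9 untreated and 853.2, 850.4 and 719.2 with DAC. All DAC arrays lay above all untreated arrays on both scales, and the 3 DAC values were close together. The log2 fold change was 2.13 ± 0.13, or 4.38-fold (adjusted p = 5.13e-05, limma). The call was kept in each of 17 other settings.

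Mmp3, the gene of stromelysin 1, a close relative of stromelysin 2, went from undetected to detected. None of its 3 probes was detected on any untreated array, and each was detected on all 3 DAC arrays. This pattern, undetected by every probe when untreated and seen by 1 probe or more on each DAC array, was found for 0.965% of all gene names, and Mmp3 was the only member that showed it. The probe with the highest mean (1510750) read 4.67, 4.64 and 4.63 untreated and 5.96, 6.59 and 6.61 with DAC. The second (6180544) read 4.42, 4.50 and 4.46 untreated and 5.79, 5.74 and 6.06 with DAC. The last (5270670) read 4.84, 4.58 and 4.70 untreated and 5.49, 5.49 and 5.51 with DAC. All 3 probes separated the groups without overlap, and DAC replicate 1 was the lowest of the treated arrays on the first of them. Because the untreated signal was not above background, only a bound can be given, computed against the lowest signal of a detected probe on each array. By the probe with the highest mean Mmp3 was at least 2.96-fold higher with DAC (adjusted p = 0.000800, limma), and by the others at least 2.05-fold and 1.59-fold. All 3 probes met the detection filter through the DAC arrays alone, so this p and the lack of overlap are not separate support for the rise. In the fit without that filter, probe 1510750 had an adjusted p of 0.00524 (limma).

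**Figure D2:**
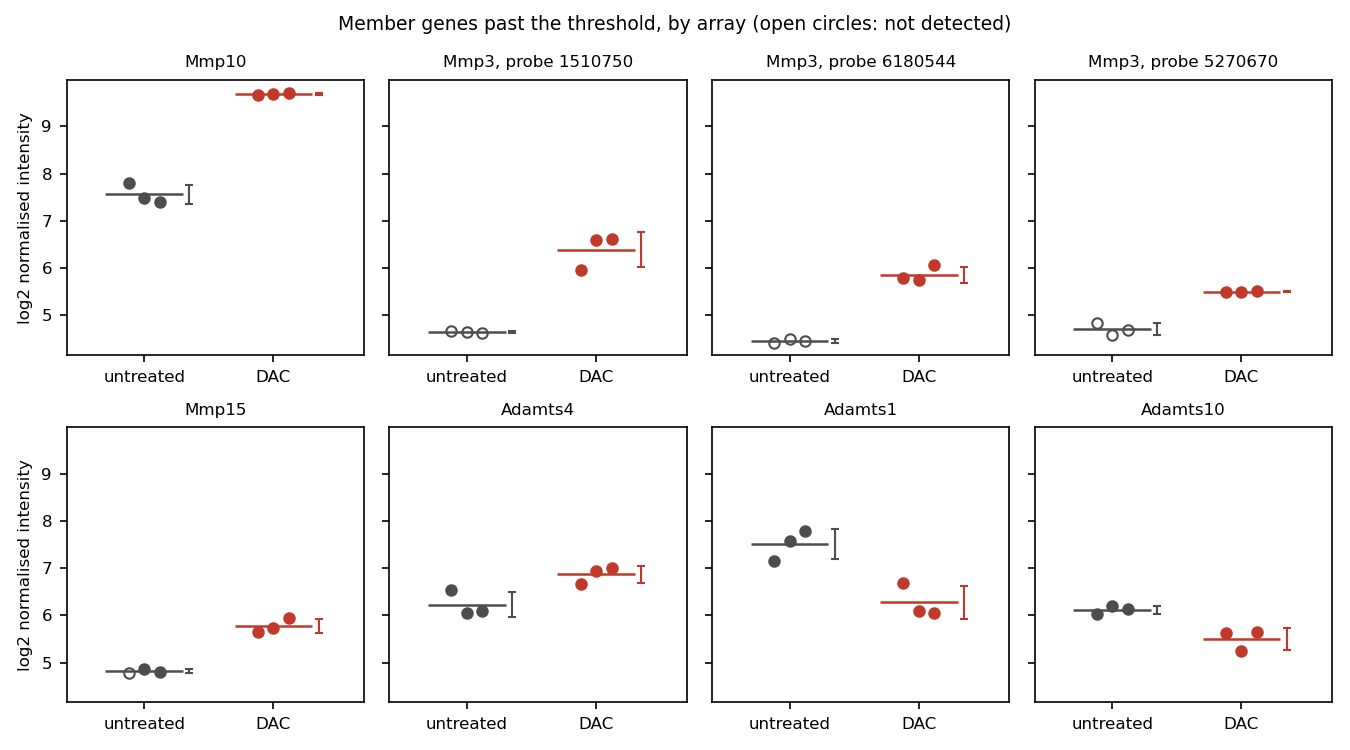
Log2 normalised intensity on each array for the 6 genes past the threshold, with all 3 probes of Mmp3. Horizontal lines are group means and the bars beside them 1 SD (n = 3). Open circles mark arrays on which the probe was not detected, which are all untreated arrays of Mmp3 (4.42 to 4.84) and untreated replicate 1 of Mmp15.

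The other genes of the row on chromosome 9 did not pass the threshold or were not detected. Mmp13, the gene of collagenase 3, which cuts fibrillar collagen, read 9.13, 8.73 and 8.72 untreated and 9.17, 9.39 and 9.36 with DAC. Untreated replicate 1 lay just below the lowest DAC array, and the groups did not overlap. The log2 fold change was 0.45 ± 0.15 (adjusted p = 0.0845, limma; 95% confidence interval 0.10 to 0.79), and a second tested probe of the gene gave -0.01. Without untreated replicate 1, Mmp13 was past the threshold (0.57, adjusted p = 0.0104, limma). Mmp1a, one of the rodent counterparts of interstitial collagenase, read 5.82, 5.51 and 5.51 untreated and 5.31, 5.43 and 5.55 with DAC, with overlap between the groups (-0.18 ± 0.14, adjusted p = 0.406, limma). No probe of Mmp12, Mmp1b, Mmp8, Mmp27, Mmp20 or Mmp7 was detected on any array. In this row, Mmp3 and Mmp10 therefore rose while Mmp1a, which lies between them, did not pass, and the difference between these genes was not tested. Probes of close relatives such as Mmp1a and Mmp1b, or Mmp3 and Mmp10, may bind each other's transcripts, and probe sequences were not used here.

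Of the other secreted MMPs none passed the threshold. Mmp11 (stromelysin 3), which is known to be activated inside the cell by furin, read 8.20, 8.34 and 8.34 untreated and 8.06, 7.72 and 7.92 with DAC. All DAC values were lower, and the log2 fold change was -0.39 ± 0.13 (adjusted p = 0.0813, limma). Mmp28 (epilysin), an epithelial MMP, read 5.90, 5.68 and 5.45 untreated and 5.98, 5.98 and 6.06 with DAC (0.33 ± 0.14, adjusted p = 0.157, limma). The gelatinase gene Mmp2, whose product cuts denatured and basement membrane collagen, read 6.19, 5.30 and 5.57 untreated and 5.32, 5.45 and 5.77 with DAC. The other gelatinase gene, Mmp9, read 4.96, 5.20 and 4.75 untreated and 5.11, 4.88 and 4.61 with DAC, and was detected on 2 arrays of each group. Both gelatinases overlapped between the groups. The log2 fold change of Mmp2 was -0.17 (adjusted p = 0.669, limma; 95% confidence interval -0.71 to 0.37), and that of Mmp9 was -0.10 (adjusted p = 0.724, limma; 95% confidence interval -0.50 to 0.29). Mmp19 was detected on 1 untreated and 2 DAC arrays and had a log2 fold change of 0.08. No probe of Mmp21 was detected.

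The membrane-anchored MMPs are held at the cell surface, and 1 of 5 tested genes rose, against 9.38% of all genes, a count too small to set the class apart. Mmp15 (MT2-MMP) read 4.79, 4.87 and 4.80 untreated and 5.66, 5.74 and 5.93 with DAC. Its probe (6370521) was detected on 2 of 3 untreated and on all 3 DAC arrays, and the groups were well apart. The log2 fold change was 0.96 ± 0.12, or 1.94-fold (adjusted p = 0.00204, limma). Its untreated signal lay near the lowest signal of a detected probe, so the size depended on background handling. It was 0.51 with offset 50 and 0.53 without background correction. Mmp14 (MT1-MMP), the activator of the Mmp2 proenzyme, read 11.18, 11.33 and 11.45 untreated and 11.20, 11.21 and 11.29 with DAC. Its groups overlapped, and the log2 fold change was -0.09 (adjusted p = 0.671, limma; 95% confidence interval -0.36 to 0.19). Mmp16 read 4.78, 5.64 and 5.70 untreated and 4.91, 4.86 and 4.50 with DAC, with untreated replicate 1 among the DAC values. It had a log2 fold change of -0.61 ± 0.25 (adjusted p = 0.145, limma) and Mmp23 one of -0.07 ± 0.16, and neither was detected on all 6 arrays. Mmp17 and Mmp25, both linked to the membrane by a lipid anchor, had no probe detected.

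Mmp24 (MT5-MMP), known mainly from the nervous system, gave different answers by probe. Its probe with the highest mean (2230477) read 9.33, 9.04 and 8.97 untreated and 8.70, 9.05 and 9.15 with DAC (-0.15 ± 0.16, adjusted p = 0.586, limma). A second (2360152) read 5.23, 5.01 and 4.91 untreated and 6.21, 6.58 and 6.41 with DAC (1.35 ± 0.14, adjusted p = 0.000894, limma). Another (580037) read 5.18, 5.22 and 5.11 untreated and 5.84, 6.00 and 6.38 with DAC (0.91 ± 0.16, adjusted p = 0.00790, limma). The first probe overlapped between the groups and the other 2 did not. Their 95% confidence intervals, -0.52 to 0.23 against 1.01 to 1.68 and 0.55 to 1.26, did not overlap either. The remaining probe was not detected on any array. Mmp24 is not counted among the risen genes, since each gene is counted by its tested probe with the highest mean. Which transcripts the probes read cannot be told from the files.

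**Figure D3:**
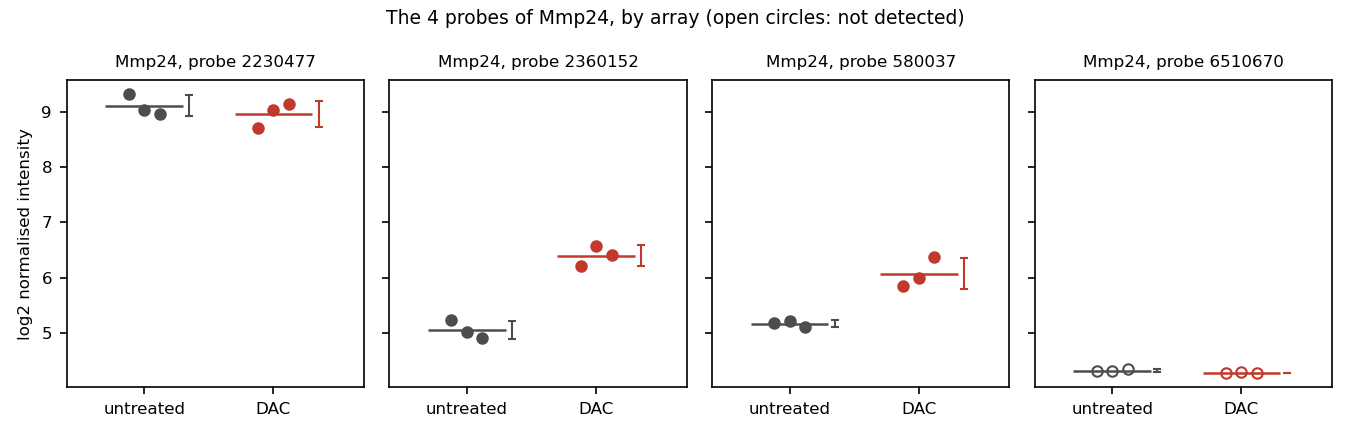
Log2 normalised intensity of the 4 probes of Mmp24 on each array, with group means (lines) and 1 SD (bars, n = 3). The probe near 9 shows overlapping groups, 2 probes near 5 in untreated plates are higher on all DAC arrays, and the last is not detected on any array (open circles).

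In contrast to the stromelysin windows, those of Mmp15 and Mmp24 are rich in CpG, the dinucleotide whose cytosine DNA methyltransferases modify. The 2 windows below, RefSeq GRCm38.p6 and both on the plus strand, have each CG in capitals, and a window of the testis-type gene Adam29, on the minus strand, follows for comparison.
Mmp15, chr8:95352046-95352345: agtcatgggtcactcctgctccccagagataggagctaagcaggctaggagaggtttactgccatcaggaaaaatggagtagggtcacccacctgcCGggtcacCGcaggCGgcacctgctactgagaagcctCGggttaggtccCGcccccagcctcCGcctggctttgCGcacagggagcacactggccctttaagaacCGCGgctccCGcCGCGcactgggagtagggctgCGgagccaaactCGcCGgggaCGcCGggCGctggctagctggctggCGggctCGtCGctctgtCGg
Mmp24, chr2:155775092-155775391: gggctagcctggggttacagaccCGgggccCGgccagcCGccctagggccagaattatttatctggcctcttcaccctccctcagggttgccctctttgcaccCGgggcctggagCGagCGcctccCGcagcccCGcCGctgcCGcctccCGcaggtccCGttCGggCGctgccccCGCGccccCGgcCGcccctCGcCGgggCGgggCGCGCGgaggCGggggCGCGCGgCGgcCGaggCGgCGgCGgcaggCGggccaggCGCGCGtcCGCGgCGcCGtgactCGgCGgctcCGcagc
Adam29, chr8:55906915-55907214: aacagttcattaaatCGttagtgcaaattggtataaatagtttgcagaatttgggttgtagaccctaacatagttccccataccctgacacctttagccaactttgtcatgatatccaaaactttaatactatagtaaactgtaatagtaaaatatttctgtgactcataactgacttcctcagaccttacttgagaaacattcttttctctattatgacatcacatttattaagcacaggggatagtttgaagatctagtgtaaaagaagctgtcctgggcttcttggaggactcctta

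The Mmp15 window held 22 CpG and that of Mmp24 held 44, against 1 for Mmp3 and 2 for Mmp10. Of all 32851 windows, 78.5% held as many CpG as Mmp15 or fewer, and the same share was 98.1% for Mmp24, 14.1% for Mmp3 and 23.3% for Mmp10. The window of Adamts1, which fell, held 18. The risen genes thus included windows with few and with many CpG. Adam29 held 1, and all 7 testis-type windows held 0 to 2, where the median of all windows was 7. Methylation itself was not measured in these samples.

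**Figure D4:**
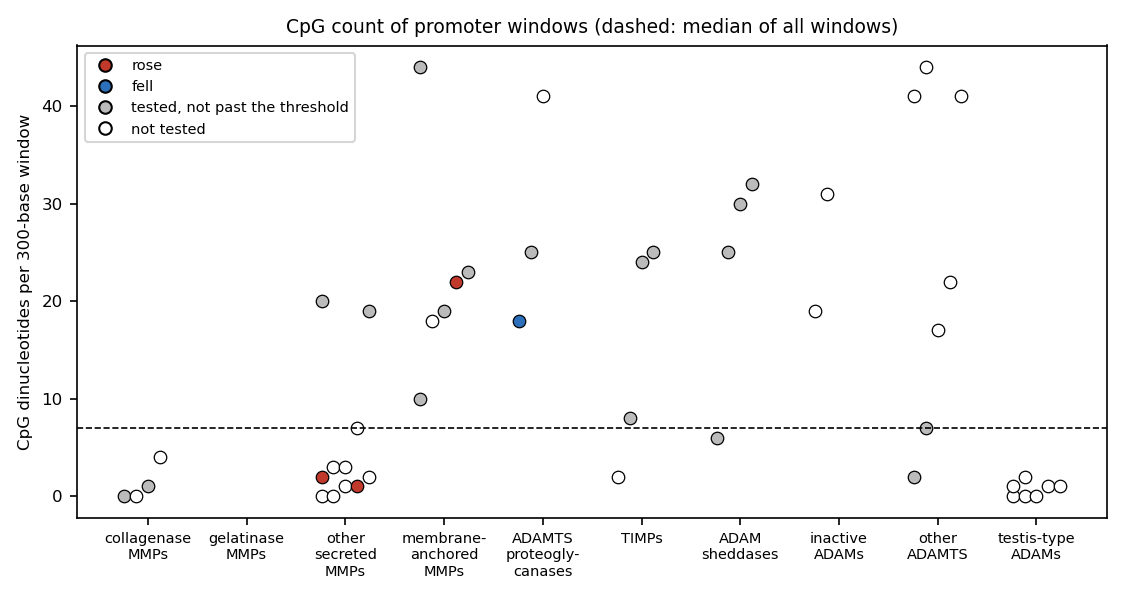
CpG dinucleotides per 300-base promoter window on the vertical axis for 48 windows of 45 member genes by role, with red for genes that rose, blue for genes that fell, grey for tested genes not past the threshold and white for genes not tested. The dashed line is the median of all windows, 7, and the 7 testis-type windows lie at 0 to 2. The table held no window for gelatinases, Adamts4 or Adamts10.

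Adamts4 and Adamts1, whose products both cut the large proteoglycans aggrecan and versican, moved in opposite directions. Adamts4 (aggrecanase 1) read 6.53, 6.06 and 6.09 untreated and 6.66, 6.94 and 6.996 with DAC. Untreated replicate 1 came close to DAC replicate 1, without overlap, and the log2 fold change was 0.64 ± 0.17 (adjusted p = 0.0384, limma). That call was lost without untreated replicate 2 or 3, without DAC replicate 2 or 3, with median scaling, without the filter on dim probes, and with untreated replicates 2 and 3 averaged. Adamts1 read 7.16, 7.58 and 7.80 untreated and 6.69, 6.08 and 6.05 with DAC. It fell by 1.24 ± 0.22 (adjusted p = 0.00966, limma), to 0.424 of the untreated signal, and the call was lost without DAC replicate 2 (adjusted p = 0.0558, limma). The other 2 tested probes of Adamts1 had log2 fold changes of -0.68 and -0.86 and did not pass. Adamts9 read 6.43, 5.79 and 5.31 untreated and 4.79, 5.37 and 5.44 with DAC, with overlap between the groups (-0.64 ± 0.29, adjusted p = 0.179, limma). A dimmer probe matched to this gene, under an array name outside the member rule, did fall past the threshold (adjusted p = 0.00641, limma). The tested probes of Adamts9 thus gave different answers. Adamts15 had a log2 fold change of 0.07, Adamts8 was detected on a single array and Adamts20 on none. Together with the MMPs, 18 of 29 matrix-degrading genes were tested, of which 4 rose and 1 fell, or 27.8% against 15.5% of all genes. Their median log2 fold change was -0.08. The count is too small to set the class apart, and it includes Mmp3, which met the detection filter through the DAC arrays alone.

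The Timp genes, which encode the inhibitors of these enzymes, did not pass the threshold. Timp1 read 11.02, 10.88 and 11.00 untreated and 11.19, 11.15 and 11.23 with DAC. All DAC values were above all untreated ones, by 0.22 ± 0.11 on average (adjusted p = 0.209, limma; 95% confidence interval -0.03 to 0.48), and a second probe gave 0.31 ± 0.12. Timp2, which also takes part in activation of the Mmp2 proenzyme by Mmp14, read 12.41, 12.89 and 13.0025 untreated and 12.70, 12.31 and 12.41 with DAC. Untreated replicate 1 lay among the DAC values, and the log2 fold change was -0.29 ± 0.19 (adjusted p = 0.330, limma), or -0.46 (adjusted p = 0.0431, limma) without that array. Timp3, whose protein is bound to the matrix and also blocks ADAM17, read 9.88, 9.64 and 9.63 untreated and 9.88, 9.97 and 9.94 with DAC (0.21 ± 0.12, adjusted p = 0.280, limma). Its 2 other probes gave -0.13 and 0.05. No probe of Timp4 was detected. By the probes with the highest mean, the 95% confidence intervals of Timp1, Timp2 and Timp3 reached at most 0.49 upward, where that of Mmp10 began at 1.82.

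None of the 5 tested somatic ADAM proteases passed the threshold. Adam9 read 10.55, 10.16 and 10.24 untreated and 9.93, 10.43 and 10.30 with DAC (-0.10 ± 0.17, adjusted p = 0.740, limma). Adam15 read 9.65, 10.17 and 10.03 untreated and 10.46, 9.88 and 10.20 with DAC (0.23 ± 0.19, adjusted p = 0.472, limma). Adam17, the enzyme that releases TNF and several EGF receptor ligands, read 9.36, 8.92 and 9.004 untreated and 8.80, 9.16 and 9.06 with DAC (-0.09 ± 0.16, adjusted p = 0.739, limma). In all 3 the groups overlapped, with 95% confidence intervals within -0.49 and 0.67. Adam10, which cuts Notch receptors, had a log2 fold change of -0.14 ± 0.31 with a wide spread among the untreated arrays, from 4.81 to 6.15. Adam8 had one of -0.22 ± 0.11, and a second probe of it one of -0.43 ± 0.14, with all DAC values lower by both probes and neither past the threshold. Adam12 was detected on 2 DAC arrays and no untreated one, too few to be tested, and Adam28 and Adam33 on none. Of the ADAMs without protease activity, Adam22 and Adam23 were each detected on a single DAC array and Adam11 on none.

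Among the other ADAMTS genes, Adamts10, known in humans for its link to fibrillin microfibrils, was the one that passed. It read 6.02, 6.20 and 6.13 untreated and 5.62, 5.24 and 5.65 with DAC, and the groups did not overlap. It fell by 0.61 ± 0.14 (adjusted p = 0.0266, limma), and the call was lost without untreated replicate 2 or 3 or DAC replicate 2, and with untreated replicates 2 and 3 averaged. Adamts7 read 6.81, 6.30 and 6.01 untreated and 5.78, 5.80 and 6.43 with DAC (-0.37 ± 0.25, adjusted p = 0.349, limma). Adamts6 read 6.71, 6.65 and 6.36 untreated and 6.32, 6.32 and 6.39 with DAC (-0.23 ± 0.13, adjusted p = 0.271, limma). Adamts12 read 6.22, 5.67 and 5.60 untreated and 5.65, 5.82 and 5.96 with DAC (-0.02 ± 0.19, adjusted p = 0.966, limma). These 3 overlapped between the groups, and their 95% confidence intervals included 0. Adamts13, the protease of von Willebrand factor, had a log2 fold change of -0.26 ± 0.12 (adjusted p = 0.185, limma). Adamts16 was detected on 1 array and Adamts17 on 2, and Adamts2, Adamts3, Adamts14, Adamts18 and Adamts19 on none.

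The testis-type ADAMs were mostly undetected, in untreated as in treated plates. Of 18 such genes, 11 had no probe detected on any array (Adam2, Adam3, Adam7, Adam18, Adam21, Adam24, Adam25, Adam26a, Adam26b, Adam29 and Adam39). Adam2 and Adam3 encode sperm surface proteins needed for fertility in mice. Another 5 (Adam1b, Adam5, Adam6a, Adam30 and Adam34) were detected on a single array each. The array name ADAM6 was read as Adam6a by its RefSeq synonym. The number of testis-type probes detected, of 28, was 2, 4 and 6 on untreated replicates 1 to 3 and 3, 6 and 3 on DAC replicates 1 to 3. These counts overlap, and no testis-type probe was at once detected on each DAC array and undetected on each untreated one. Over all 28 probes, without any filter, the mean DAC signal minus the mean untreated signal ran from -0.18 to 0.19 on the log2 scale.

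The 2 testis-type genes with a tested probe were Adam32 and Adam4. Adam32 read 5.84, 5.26 and 5.06 untreated and 5.62, 5.57 and 5.52 with DAC, was detected on all 6 arrays and had overlapping groups (0.19 ± 0.20, adjusted p = 0.563, limma). Untreated replicate 1 was the highest of the 6, and without it the log2 fold change was 0.41 (adjusted p = 0.0333, limma). In RefSeq gene order Adam32 stands directly beside Adam9 on chromosome 8, after Adam18, Adam3 and Adam5, which were detected on 0, 0 and 1 array. Adam4 read 5.44, 4.87 and 5.25 untreated and 5.05, 5.36 and 5.15 with DAC, a log2 fold change of 0.00 ± 0.17 (adjusted p = 0.997, limma). Set side by side, 0 of 2 tested testis-type genes and 5 of 18 tested matrix-degrading genes were past the threshold, and these counts are too small to compare.

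**Figure D5:**
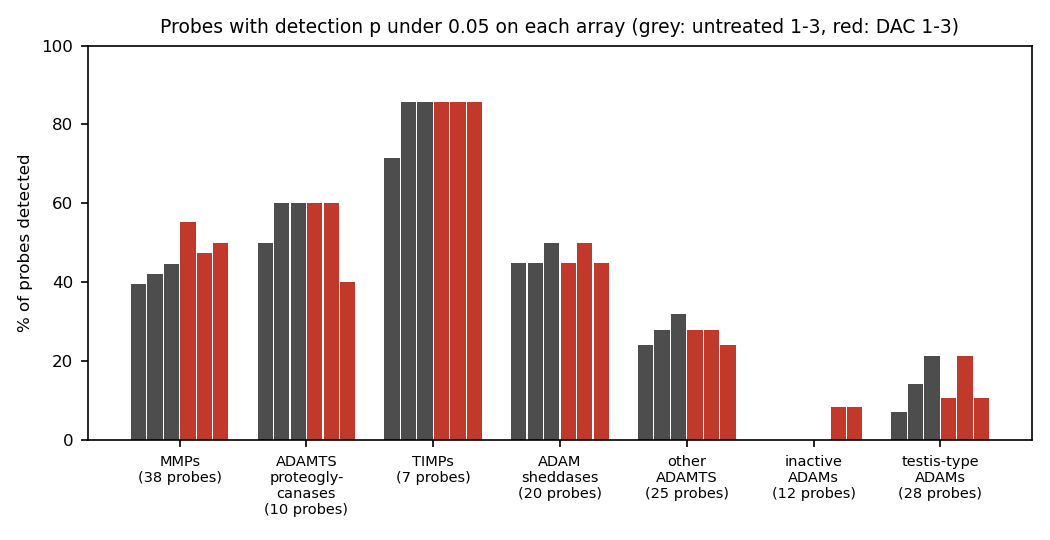
Percentage of each class's probes with a detection p under 0.05 on each array, grey for untreated replicates 1 to 3 and red for DAC replicates 1 to 3, with the number of probes under each class. For the 28 testis-type probes the numbers detected are 2, 4 and 6 untreated and 3, 6 and 3 with DAC.

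Genes that act with the testis-type ADAMs on sperm were also mostly undetected. Of 20 genes of fertilin partners and fertilisation proteins, 14 had no probe detected, among them Clgn, the chaperone of the fertilin ADAMs, and Izumo1. Of 5 tested, 1 rose and 0 fell, against 15.5% of all genes called, too few to set the list apart. The gene that rose was Ly6k, whose protein is needed in mice for Adam3 to reach the sperm surface, not detected untreated and at least 1.99-fold higher with DAC (adjusted p = 0.00105, limma). Its probe met the detection filter through the DAC arrays alone, so this p is not separate support. Calr3, Tex101 and Ace did not pass, at 0.41, 0.41 and -0.56. Of 9 markers of postmeiotic male germ cells on the array, 7 had no probe detected and none could be tested.

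Activators, inhibitors and binding partners of these proteases changed in part. Of 23 tested, 6 rose and 2 fell, 34.8% against 15.5% of all genes, with a median log2 fold change of 0.05. Plat, the gene of tissue plasminogen activator, rose by 0.91 ± 0.15 (adjusted p = 0.00690, limma). Plasmin, which it generates, is known to activate MMP proenzymes. Tspan33, a tetraspanin that guides Adam10, rose by 1.04 ± 0.15, and the matrix protein gene Thbs2 was at least 2.14-fold higher with DAC. Pcsk6, a proprotein convertase of the furin family, fell by 1.11 ± 0.13 (adjusted p = 0.00125, limma). Of the other called genes, named after their values were seen, Thbs1 fell by 1.74 ± 0.40 (adjusted p = 0.0238, limma), while Serpine2, an inhibitor of plasminogen activators, rose by 0.71 ± 0.13. Of 26 tested genes whose proteins ADAM10 or ADAM17 can shed, 5 rose and 2 fell, or 26.9%, with a median of 0.11. Tnf was not detected untreated and at least 1.195-fold higher with DAC, Tnfrsf1b rose by 0.76 ± 0.14 and the chemokine gene Cxcl16 by 0.66 ± 0.12, and Efna5 fell by 0.74 ± 0.17. Tnfrsf1b and Efna5 were each called by 1 of 2 tested probes. Thbs2 and Tnf met the detection filter through the DAC arrays alone. The lists were chosen with earlier results of these data known, so their shares are not support for a change of either list. When DAC replicate 2 or either of untreated replicates 2 and 3 was left out, 5 of the regulators and 2 or 3 of the shed substrates were past the threshold. For the shed substrates the count was 2 without DAC replicate 3 and 11 without untreated replicate 1. The share of all probes called moved as well, from 15% with all arrays. It was 6.37% without DAC replicate 2, and 6.48% and 6.83% without untreated replicates 2 and 3. Without DAC replicate 3 it was 7.62%, and without untreated replicate 1 it was 29.7%.

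Markers of other cells that an explant could hold moved as well. Stromelysins are also made by fibroblasts and leukocytes. Of 10 fibroblast markers 3 were tested, of which Acta2 and Col1a1 rose by 2.23 ± 0.23 and 2.22 ± 0.25, and Pdgfra did not pass. Their summed normalised intensity was 333.3 to 369.8 untreated and 1252 to 1705 with DAC, while no probe of Col1a2, Col3a1, Dcn, Lum, Pdgfrb or Thy1 was detected. Of 10 macrophage markers 3 were tested. Laptm5 rose, but met the detection filter through the DAC arrays alone, and Cd68 and Mrc1 did not pass, at 0.09 and 0.27. The sum of these 3 was 744.3 to 840.6 untreated and 989.5 to 1048 with DAC, and Ptprc, Adgre1, Itgam, Aif1, Fcer1g and Tyrobp were not detected. Of the neutrophil markers S100a8 alone was tested, at 30.8 to 35.7 untreated and 98.8 to 125.4 with DAC, and the other 7 on the array, S100a9 and Mpo among them, were not detected. Of the endothelial ones Esam alone was tested, at 29.1 to 33.6 and 60.7 to 80.0, and the other 7, Pecam1 and Cdh5 among them, were not detected. Of the 8 tested epithelial markers Cldn4 and Elf3 rose, by 1.75 ± 0.12 and 1.26 ± 0.16. Their part in the rises of Mmp3 and Mmp10 was not tested.

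Untreated replicate 1 moved the counts of members most. Without it, 7 member genes rose and 6 fell of the same 33, while 29.7% of all probes were called. The genes added were Mmp13, Mmp28 and Adam32 upward and Mmp11, Mmp16, Adamts9 and Timp2 downward. When any other array was left out, 3 or 4 members rose and 0 to 2 fell. Mmp10, Mmp3 and Mmp15 were called in each of these 6 fits, with adjusted p from 9.65e-06 to 0.0156 (limma). With untreated replicates 2 and 3 averaged into 1 sample, Mmp10, Mmp3, Mmp15 and Adamts1 were past the threshold and Adamts4 and Adamts10 were not. In all these fits the detection filter was set on all 6 arrays. Mmp3 met it through the DAC arrays alone, so its calls here are not separate support for its rise.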

How the data were processed

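Per the labels' protocols, Trizol was used to extract the RNA, from which cRNA carrying biotin was made for Illumina arrays. Per the file headers, the authors' deposited table gives 4 values a probe on every array, namely the intensity averaged over beads, its standard error, a bead count and the detection p-value. The intensities are neither scaled nor background-corrected in that table. The reference for the detection p-value is not given in the sources used here, and negative control beads were assumed. Arrays had a median of 44 or 45 beads per probe. A second table of values was not used here, since its probe names are not paired with gene names.

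Intensities were background-corrected, quantile-normalised and set to log2 with neqc (offset 16) in R 4.3.3 with limma 3.58.1. Probes with a detection p under 0.05 on at least 3 of 6 arrays, 21415 of 45281, were fitted with lmFit and eBayes, untreated against DAC, with no covariate and Benjamini-Hochberg adjustment over all of them. The procedure was tested on simulated data. Array names were matched to RefSeq symbols, 139 member probes by symbol and 1 by synonym. Genes of a role list that the array names did not give, such as Adamts5 and Adam19, were not analysed here. Named in the text are all tested members, with values by array for those past the threshold and the 3 brightest of each role, and up to 4 genes of each pathway list by adjusted p. The members and lists were chosen with earlier results of these data known. Alternatives were another offset, no background correction, median scaling, cyclic loess, other filters, other choices of probe per gene, the replicate number as a block, untreated replicates 2 and 3 averaged, and each array left out.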

Additional observations from a re-analysis of the deposited data

How the results depend on the processing

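Over 33 genes and up to 17 alternatives, 498 of 547 fold changes kept their direction and side of the threshold, 16 lost the call, 8 gained it and 25 changed sign. Of the 25, the 24 other than Mmp24 were past the threshold in neither setting. With the probe of the lowest mean, the values were 0.91 for Mmp24, -0.010 for Mmp13, -0.088 for Adam15 and -0.18 for Adam4. Adam4 was at -0.0028 with offset 50, -0.00057 without background correction, -0.010 with median scaling and -0.063 with the averaging, and Adamts12 at 0.026 with cyclic loess. Genes whose sign changed with an array left out had the ranges Adam10 (-0.41 to 0.25), Adam17 (-0.18 to 0.040), Adam4 (-0.16 to 0.13), Adam9 (-0.20 to 0.046), Adamts12 (-0.13 to 0.18), Adamts15 (-0.029 to 0.20), Mmp19 (-0.0051 to 0.21), Mmp2 (-0.36 to 0.082), Mmp23 (-0.23 to 0.075) and Mmp9 (-0.22 to 0.023). Mmp10, Mmp3 and Mmp15 kept their calls under every alternative that tested them, but not their sizes. Where a detection filter was used, the calls of Mmp3 are not separate support, since it met the filter through the DAC arrays alone. With offset 50 the log2 fold changes of Mmp10 and Mmp15 were 1.95 and 0.51, against 2.13 and 0.96 in the main setting. The fitted values of Mmp3, 1.00 with offset 50 and 1.74 in the main setting, are not measured sizes. Its untreated signal was not above background, and its lower bound in the main setting was 1.57. Requiring detection on all 6 arrays, which removes Mmp3 and Mmp15 from the test, left 2 genes that rose, with 2 among the matrix-degrading enzymes, and 0 fertilin partners called. With median scaling, 5 regulators were called instead of 8. With untreated replicates 2 and 3 averaged, 1 member fell, 0 other ADAM and ADAMTS genes, 5 regulators and 3 shed substrates were called, and the cause was not tested. Over all probes the median log2 fold change went, with median scaling, from -0.05 to -0.14 and the share of calls that rose from 55.7% to 45.0%, and cyclic loess gave 65.3%. Calls over all probes numbered 3202, against 845 with the block, 1464 with the averaging, and 1364 to 6363 with an array left out.

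Replicate numbers occur in both groups, and deviations of same-numbered samples from their group means correlated at -0.61, -0.08 and -0.49. Those of differently numbered samples ran from -0.48 to 0.56. With 3 arrays per group the deviations are tied to each other, so these values cannot tell whether the numbers stand for a pairing. With the replicate number as a block, 0 members fell, 0 matrix-degrading enzymes fell, and 0 other ADAM and ADAMTS genes, 3 regulators and 0 shed substrates were called (limma). Mmp10, Mmp3 and Mmp15 were called with the block as well, where Mmp3 again met the filter through the DAC arrays alone. Adamts4, Adamts1 and Adamts10 were not called with it.

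With each array left out in turn, 3 to 7 members rose and 0 to 6 fell, and 3 to 6 matrix-degrading enzymes rose and 0 to 4 fell. The range was 0 to 1 for testis-type ADAMs, for Timps and for other ADAM and ADAMTS genes, 5 to 10 for regulators, 2 to 11 for shed substrates and 1 to 1 for fertilin partners. Signals near background limit the dim members, of which 41 genes could not be tested.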
